A study of Mus musculus with 10 samples.

Results

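The leptin receptor gene Lepr and 8 genes tied to the same signalling family were followed in mouse livers that lack Fbp1, the gluconeogenic fructose bisphosphatase. The members were the rows of the deposited count table whose symbol was Lepr, its neighbour Leprot, Leprotl1, the cytokine receptor genes Il6ra, Il6st, Lifr and Osmr, or the signalling genes Stat3 and Socs3. All 9 were found among 53392 genes, and all 9 passed the filter on low counts that left 15392 genes tested. Livers of 5 Fbp1-deleted and 5 wild type (WT) mice, all C57BL/6 and 24 weeks old, were frozen before RNA was taken. The labels speak of a hepatic deficiency, and the sources used here do not give how it was made, nor the sex or feeding state of the mice.

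The family was chosen with the rise of Lepr in this same comparison already known. The changes of its members between the genotypes are therefore a description, given with the standard error (SE) of the fit and no p-value. A member is said to have risen or fallen where its adjusted p was under 0.05 in edgeR's quasi-likelihood test over all 15392 genes. Levels are counts scaled to library size (CPM), and changes are log2 ratios of Fbp1-deleted over WT livers.

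Leptin is a hormone of fat cells that reports energy stores. Its receptor exists as a long form that activates the kinase JAK2 and the transcription factor STAT3, as shorter membrane forms with little of the inner tail, and as a soluble form that carries leptin in blood. Liver is known as a source of soluble receptor in mice, and food deprivation is known to raise Lepr transcript in mouse liver. The receptor resembles gp130, the shared signalling chain encoded by Il6st, which pairs with ligand-binding chains for interleukin-6, leukaemia inhibitory factor and oncostatin M. STAT3 then drives acute phase genes in hepatocytes, and its target SOCS3 shuts the receptors off. The table counts reads per gene, so the long, short and soluble forms of Lepr cannot be told apart here.

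The promoter windows of Lepr, of its neighbour Leprot and of the feedback gene Socs3 are shown because Lepr rose while Leprot did not, and because Socs3 is the textbook STAT3 target of the family. They are RefSeq windows in GRCm38.p6, cut back to the bases before the first annotated GENCODE exon they meet. The Lepr window is chr4:101717157-101717403 on the plus strand and the Leprot window chr4:101647533-101647717 on the plus strand. The Socs3 window is chr11:117969452-117969616 on the minus strand, before a RefSeq start that lies 681 bases inside the gene as GENCODE draws it. Capitals mark a match to the STAT motif TTCNNNGAA.
Lepr: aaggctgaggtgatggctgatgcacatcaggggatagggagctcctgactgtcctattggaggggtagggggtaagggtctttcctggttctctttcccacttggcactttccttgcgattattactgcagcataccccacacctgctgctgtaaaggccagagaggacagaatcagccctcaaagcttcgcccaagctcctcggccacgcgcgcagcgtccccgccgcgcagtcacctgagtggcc
Leprot: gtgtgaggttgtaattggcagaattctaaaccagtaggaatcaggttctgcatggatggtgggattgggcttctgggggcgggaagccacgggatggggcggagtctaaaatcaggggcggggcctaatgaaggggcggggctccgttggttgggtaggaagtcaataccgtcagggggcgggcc
Socs3: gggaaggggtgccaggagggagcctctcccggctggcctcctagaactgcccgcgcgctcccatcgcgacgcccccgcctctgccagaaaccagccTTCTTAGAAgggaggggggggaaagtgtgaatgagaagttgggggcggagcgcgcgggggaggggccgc
Both strands of the 250 bases before each RefSeq start were searched for TTCNNNGAA, the cAMP response element TGACGTCA, the forkhead motif GTAAACA and the E-box CACGTG, and no match found in a member overlapped another. RefSeq windows were found for 8 of the 9 genes. Neither of the 2 Lepr windows nor the Leprot window held any of the 4 sequences. The STAT motif was found in 1 member, Socs3, and in 7.02% of all 32851 promoter windows. The E-box was found in Il6ra and in 6.02% of all windows. The other motifs, TGACGTCA in 1.55% and GTAAACA in 3.17% of all windows, were in no member's window. The 250 bases before the first RefSeq start of Lepr held 10 CpG pairs and 58.4% G or C, against 15 and 60.8% for Leprot and 26 and 71.6% for Socs3.

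The libraries held between 17778395 and 23894812 estimated counts. The targeted gene Fbp1 had 7.38 to 13.4 CPM in the livers labelled Fbp1-deleted and 778 to 1050 CPM in WT livers. On the first principal component, which held 37.6% of the variance, Fbp1-deleted replicate 8 scored 6.39, the other Fbp1-deleted livers 35.3 to 54.5, and the WT livers -46.6 to -18.2. Hepatocyte markers summed to between 93830 and 106900 CPM in Fbp1-deleted and between 69290 and 109900 CPM in WT livers. In whole tissue, fewer cells of a type and less RNA per cell cannot be told apart.

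Of the 9 members, 1 rose (Lepr) and 1 fell (Lifr), beside 20.6% of all genes tested that were called in either direction, 10.6% higher and 10% lower. The same pair of genes showed no overlap between the groups, beside 6.57% of all genes tested with no overlap and higher levels and 6.89% with no overlap and lower levels. Nothing is read from that count, since the family was chosen on this comparison. Over all genes 1636 rose and 1542 fell, a split that was 1190 and 1965 with library totals and 1266 and 1878 with upper quartile factors, which shifted the median by -0.09 and -0.07. The median change of the 9 genes was -0.08, and that of all genes tested 0.01. The plots of levels by liver and of fitted changes show that Lepr stood apart from the other members in size.

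**Figure D1:**
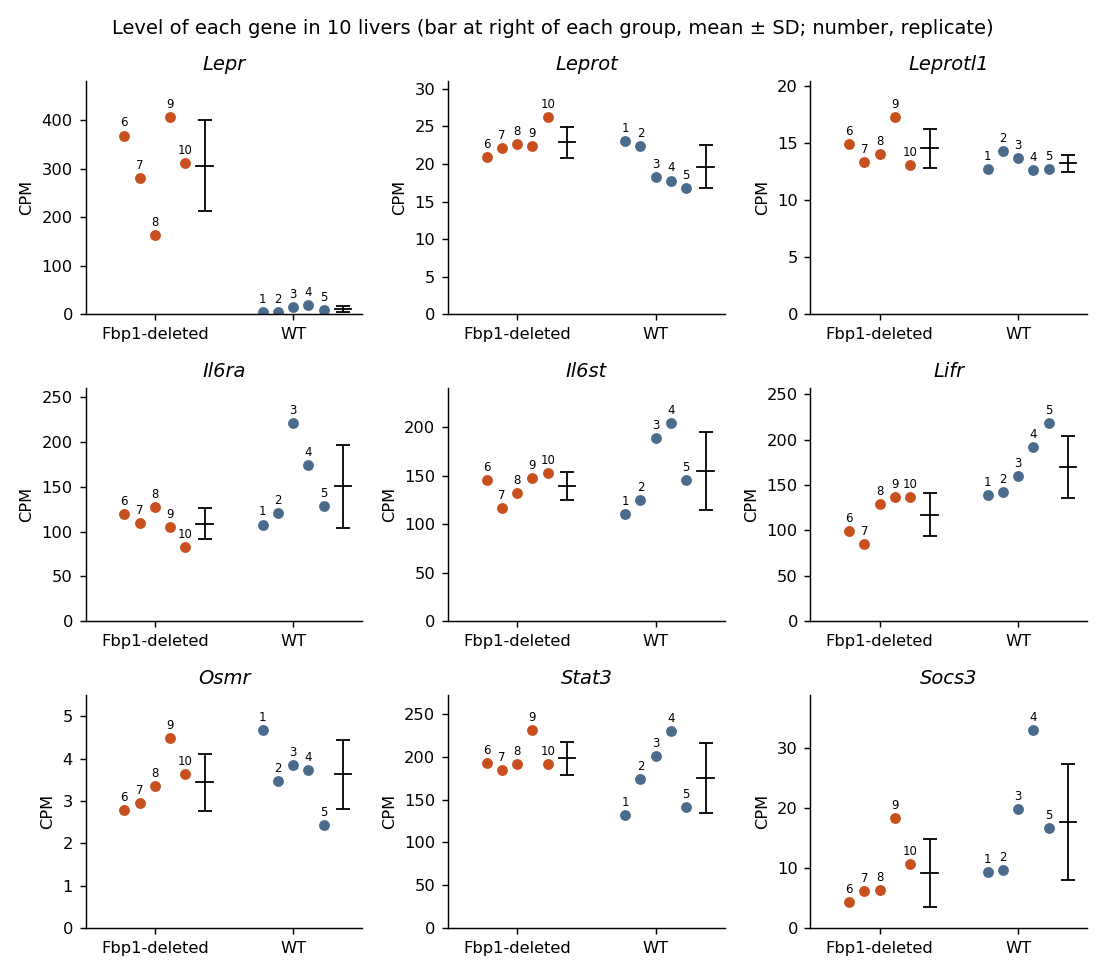
Level in CPM of each of the 9 genes in the 5 Fbp1-deleted livers (orange) and the 5 WT livers (blue), with the replicate number above each point and the mean ± SD beside each group. Lepr lies at 163 CPM or more in the Fbp1-deleted livers and at 19.8 CPM or less in the WT livers, Lifr shows no overlap in the other direction, and the other 7 genes overlap between groups.

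**Figure D2:**
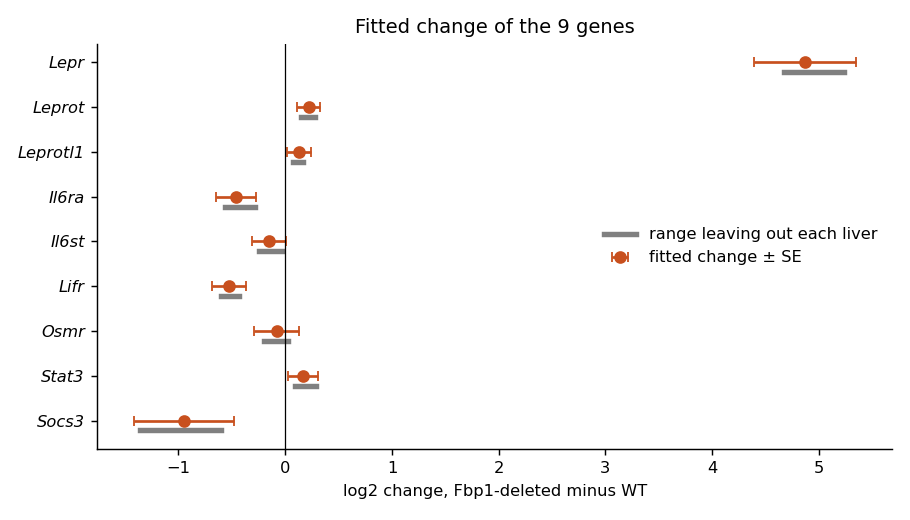
Fitted log2 change, Fbp1-deleted minus WT, of the 9 genes (points, with SE) and the range of the change when each of the 10 livers is left out in turn (grey bars). Lepr lies at 4.87 and the other 8 genes between -0.95 and 0.22.

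Lepr itself rose 29.2-fold. Its level was 369, 281, 163, 408 and 312 CPM in Fbp1-deleted replicates 6 to 10, against 5.26, 4.54, 14.4, 19.8 and 8.79 CPM in WT replicates 1 to 5. The lowest Fbp1-deleted liver thus held several times the level of the highest WT liver, and the groups did not overlap, as in 13.5% of all genes tested. The deposited estimates behind these levels were between 3360 and 7703 reads in Fbp1-deleted and between 107 and 362 reads in WT livers, so counting error is small beside the spread between livers. The mean was 306.5 ± 94.2 CPM in Fbp1-deleted and 10.55 ± 6.46 CPM in WT livers (SD, n = 5 each), and the change was 4.87 (SE 0.48). This was rank 6 among the fitted rises of all genes tested. Without Fbp1-deleted replicate 8, which had the lowest Lepr of its group, the change was 5.03. Lepr (ENSMUSG00000057722.17) lies on the plus strand of chromosome 4, from 101717404 to 101815352 in GRCm38, with 7 annotated transcripts of which 4 are coding, and no other annotated gene overlaps it.

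Leprot encodes a small membrane protein, also called endospanin, that lowers the amount of leptin receptor at the cell surface. In human, LEPROT and LEPR share a promoter, whereas in the mouse annotation used here the genes are separate, with 58.0 kb between the end of Leprot and the start of Lepr. Leprot had 20.9, 22.1, 22.6, 22.4 and 26.3 CPM in Fbp1-deleted replicates 6 to 10, against 23.0, 22.4, 18.3, 17.8 and 16.8 CPM in WT replicates 1 to 5. The groups overlapped, and the change of 0.22 (SE 0.11) did not pass. Leprotl1, the second gene of the endospanin family, on chromosome 8, had 13.1 to 17.3 CPM in Fbp1-deleted livers, with a median of 14.0 CPM, and 12.6 to 14.3 CPM in WT livers, with a median of 12.7 CPM. Its change was 0.13 (SE 0.11) and did not pass either.

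Levels of different genes are compared below as CPM per kilobase of annotated exon, which takes the counts as not yet adjusted for length. Whether they were is not known from the sources. On that scale Lepr stood at 4.76, 3.43, 1.94, 4.90 and 3.20 times Leprot in Fbp1-deleted replicates 6 to 10, and at 0.0617, 0.0544, 0.211, 0.300 and 0.141 times Leprot in WT replicates 1 to 5. Lepr exceeded its neighbour in each Fbp1-deleted liver and lay below it in each WT liver. Without division by length Lepr lay above Leprot in WT replicate 4 (19.8 CPM, against 17.8 CPM for Leprot) and below it in the other WT livers.

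The large change was limited to Lepr among the genes of its surroundings that could be tested. Within 500 kb of Lepr, 25 other annotated genes had a row in the table, of which 8 were tested and 8 had no read in any liver. The changes of the 8 tested genes lay between -0.34 and 0.47, and 1 passed. That gene was Jak1, the kinase that gp130 receptors use, 452 kb before Lepr, with 93.4 ± 9.49 CPM in Fbp1-deleted and 73.5 ± 8.98 CPM in WT livers (SD, n = 5 each). Its change was 0.35 (SE 0.11, adjusted p = 0.0363, edgeR), a call that was lost with library totals (adjusted p = 0.0734), upper quartile scaling or no filter (0.0586 and 0.0763). Leaving out Fbp1-deleted replicate 6, 9 or 10 ended it too, as did leaving out WT replicate 1, 2 or 5, with adjusted p-values of 0.078 to 0.0961. Ak4, a mitochondrial adenylate kinase, changed by 0.08 (SE 0.19, adjusted p = 0.811, edgeR), and the cAMP phosphodiesterase gene Pde4b by -0.34 (SE 0.39, adjusted p = 0.574, edgeR).

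**Figure D3:**
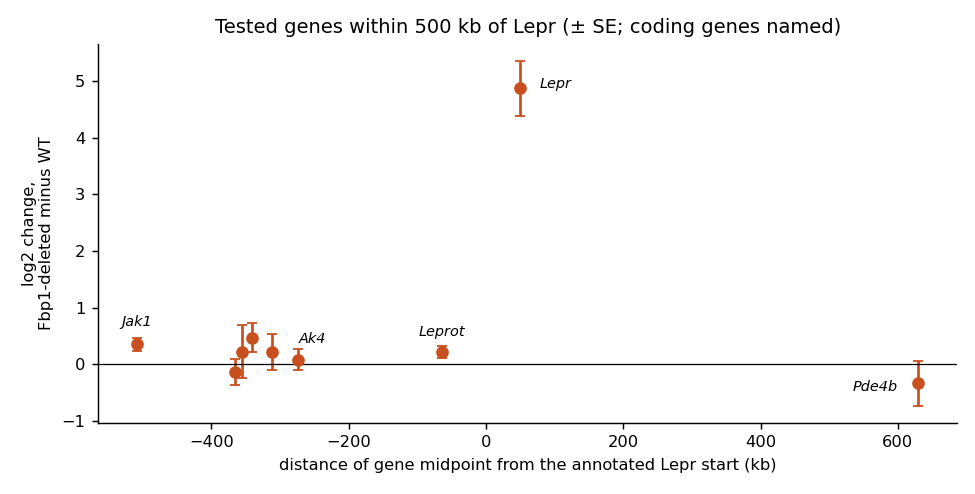
Fitted log2 change ± SE of every tested gene whose nearest edge lies within 500 kb of Lepr, against the distance of the gene's midpoint from the annotated Lepr start in kb, with coding genes named. Lepr lies at 4.87, and the other 8 genes lie between -0.34 and 0.47.

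The receptors that bind ligand beside gp130 did not rise with Lepr. Lifr, which encodes the receptor chain for leukaemia inhibitory factor, fell, with 99.5, 84.6, 129, 137 and 137 CPM in Fbp1-deleted replicates 6 to 10, against 139, 142, 160, 192 and 218 CPM in WT replicates 1 to 5. The groups did not overlap, although the highest Fbp1-deleted livers lay just below the lowest WT liver. The means were 117.5 ± 24.1 CPM in Fbp1-deleted and 170.2 ± 34.1 CPM in WT livers (SD, n = 5 each), and the change was -0.53 (SE 0.16). The call for Lifr was lost without Fbp1-deleted replicate 6 or 7 (change -0.48 and -0.43) and without WT replicate 4 or 5 (-0.49 and -0.44).

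Il6ra encodes the chain that binds interleukin-6 and gives hepatocytes their response to it. Its level was 120, 110, 128, 105 and 82.5 CPM in Fbp1-deleted replicates 6 to 10, against 108, 121, 221, 174 and 129 CPM in WT replicates 1 to 5. The groups overlapped, since WT replicates 1 and 2 lay among the Fbp1-deleted livers, and the change of -0.46 (SE 0.19) did not pass. With library totals in place of TMM factors Il6ra was called lower, at -0.54. Il6ra shares 242 bases of exon with an overlapping unnamed gene, and the estimation may divide reads from that stretch wrongly.

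Il6st, the gene of gp130, had 146, 117, 132, 148 and 153 CPM in Fbp1-deleted replicates 6 to 10, against 111, 125, 189, 204 and 146 CPM in WT replicates 1 to 5. The WT livers spanned the whole Fbp1-deleted range, and the change was -0.15 (SE 0.16). Osmr, the receptor chain for oncostatin M, was the scarcest member, with 2.78 to 4.49 CPM in Fbp1-deleted livers, median 3.35 CPM, and 2.42 to 4.67 CPM in WT livers, median 3.72 CPM. Its change of -0.08 (SE 0.21) turned to 0.03 without WT replicate 1, so no direction is given for it. Osmr and Lifr lie 216 kb apart on chromosome 15, with 1 annotated gene and no coding gene between them.

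The order of levels per kilobase differed between the genotypes mainly in the place of Lepr. In Fbp1-deleted livers Lepr came first with 43.5 ± 13.4 CPM per kb (SD, n = 5), followed by Stat3 with 20.8 ± 1.98 CPM per kb, and Lepr exceeded Stat3 within each of these livers. The ranges overlapped because Stat3 in replicate 9 (24.3 CPM per kb) exceeded Lepr in replicate 8 (23.1 CPM per kb). Without division by length Lepr lay below Stat3 in replicate 8 (163 CPM, against 191 CPM for Stat3) and above it in the other Fbp1-deleted livers. Il6ra, Il6st, Leprot and Lifr followed at 10.9 to 12.6 CPM per kb, each overlapping the next. Leprotl1 (5.04 CPM per kb) and Socs3 (3.17) overlapped one another, and Osmr (0.284) stood below all. In WT livers the order began with Stat3 at 18.4 ± 4.30 CPM per kb, Il6ra, Lifr, Il6st, Leprot, Socs3 and Leprotl1, each overlapping the next. Lepr came after them at rank 8 with 1.496 ± 0.916 CPM per kb, without overlap with its neighbours in the order. Osmr was last at 0.299 CPM per kb. That separation depends on the division by length. In plain CPM, Lepr in WT livers (4.54 to 19.8 CPM) overlapped Leprotl1 (12.6 to 14.3 CPM), Socs3 (9.35 to 32.95 CPM) and Osmr (2.42 to 4.67 CPM).

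As a share of the 5 receptor chains per kilobase, Lepr was 58.9%, 56.0%, 37.2%, 60.0% and 54.9% in Fbp1-deleted replicates 6 to 10, against 2.05%, 1.64%, 3.41%, 4.73% and 2.51% in WT replicates 1 to 5. It was the most abundant of the 5 chains in every Fbp1-deleted liver. The other 4 chains together summed to 31.4 to 39.0 CPM per kb in Fbp1-deleted and 35.7 to 57.7 CPM per kb in WT livers, ranges that overlap. These values divide by the union of annotated exons of each gene and take no account of which transcript was made.

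**Figure D4:**
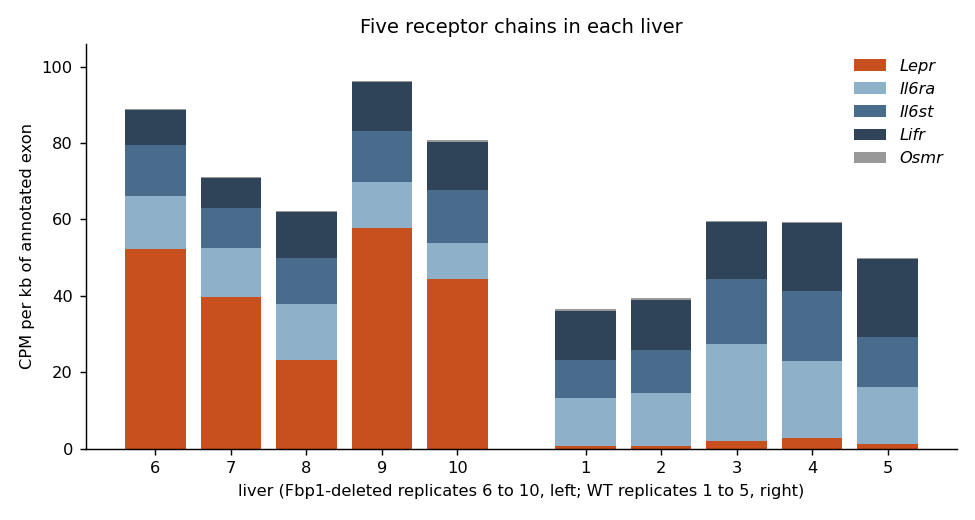
Stacked levels, in CPM per kb of annotated exon, of Lepr, Il6ra, Il6st, Lifr and Osmr in each liver, Fbp1-deleted replicates 6 to 10 on the left and WT replicates 1 to 5 on the right. Lepr makes up 37.2% to 60.0% of a bar in the Fbp1-deleted livers and 1.64% to 4.73% in the WT livers.

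Stat3, the transcription factor downstream of all these receptors, had 193, 184, 191, 231 and 191 CPM in Fbp1-deleted replicates 6 to 10, against 132, 174, 201, 230 and 141 CPM in WT replicates 1 to 5. The WT range enclosed nearly all of the Fbp1-deleted range, and the change of 0.17 (SE 0.14) did not pass. Stat3 transcript says nothing of STAT3 phosphorylation, which was not measured. The spans of Stat3 and its neighbour Stat5a overlap, with 72 bases of shared exon, and without strand the estimation may divide reads there wrongly.

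Socs3, the feedback inhibitor, did not rise beside its receptor. Its level was 4.31, 6.19, 6.35, 18.3 and 10.6 CPM in Fbp1-deleted replicates 6 to 10, against 9.35, 9.60, 19.8, 32.9 and 16.7 CPM in WT replicates 1 to 5. Fbp1-deleted replicates 6, 7 and 8 lay below every WT liver, while replicates 9 and 10 lay within the WT range. The change was -0.95 (SE 0.47) and did not pass, and it ranged from -1.36 to -0.60 when livers were left out in turn.

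The WT livers themselves differed in these genes. WT replicates 3 and 4 had the highest Lepr, Il6ra, Il6st, Stat3 and Socs3 of their group. The same livers had the highest levels of the acute phase genes Saa1 and Lcn2, which were chosen after their values were seen. Saa1, serum amyloid A, stood at 282 and 259 CPM there and at 31.0 to 34.7 CPM in the other WT livers, and Lcn2, lipocalin, at 115 and 59.3 CPM against 8.07 to 9.40 CPM. They also lay nearest to the Fbp1-deleted livers on the first principal component, at -27.8 and -18.2. Among Fbp1-deleted livers Saa1 was highest in replicates 6 and 7 (107 and 150 CPM, against 14.7 to 38.8 CPM in the others), whose Socs3 was the lowest of all livers. The part of this difference between livers in the results above was not tested.

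The ligands of the family were scarce in both genotypes. Lep had no read in any of the 10 libraries, which allows up to 0.169 CPM in the shallowest Fbp1-deleted library and up to 0.163 CPM in the shallowest WT library, at 3 counts of the total. Il6 had 1, 4, 0, 1 and 4 reads in Fbp1-deleted replicates 6 to 10 and no read in WT livers. Il31 had no read, Csf3 at most 1 read, Osm at most 3, and Il27 at most 5. Il11, Lif, Ctf2 and Ebi3 had means between 0.216 and 0.397 CPM in Fbp1-deleted livers and between 0.260 and 0.492 CPM in WT livers. Of the 13 ligand genes 3 could be tested, Ctf1 at 4.33 ± 0.892 CPM in Fbp1-deleted and 4.60 ± 0.988 CPM in WT livers (SD, n = 5 each), Cntf and Clcf1. By edgeR 0 of these 3 were called, with 0 at an unadjusted p under 0.05 and 0 by DESeq2 or limma-voom.

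Beyond the 9 members, 6 lists of related genes were read from the same fit. Of 112 listed genes 93 were tested, of which 5 rose and 16 fell, or 22.6%, beside 20.6% of all genes tested. The shares to set beside each list count below are 10.6% of all genes tested for higher and 10% for lower. Of the 21 genes called, 12 overlap the span of another annotated gene. Apart from Stat5a with Stat3, how much exon they share was not measured, nor was any effect on their counts. The lists were chosen with earlier results of these data known. Their calls and adjusted p-values are therefore a description too, as is that of Jak1 above. All adjusted p-values are edgeR's over all genes tested.

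Among 9 other tested receptors of related cytokines and hormones, 2 fell and 0 rose by edgeR. At an unadjusted p under 0.05 by edgeR 1 was higher, and 0 rose by DESeq2 or limma-voom. The median change was -0.30, beside 0.01 over all genes. Prlr, the prolactin receptor, had 137.1 ± 27.2 CPM in Fbp1-deleted and 264.3 ± 35.01 CPM in WT livers (SD, n = 5 each), a change of -0.95 (SE 0.14, adjusted p = 0.000598, edgeR). Il11ra1, the interleukin-11 chain that joins gp130, had 26.6 ± 3.70 CPM in Fbp1-deleted and 41.2 ± 7.33 CPM in WT livers, a change of -0.63 (SE 0.13, adjusted p = 0.00569, edgeR). It overlaps 6 annotated genes and belongs to a set of near-identical copies in mouse. Ghr, the growth hormone receptor, changed by -0.17 (SE 0.10, adjusted p = 0.257, edgeR).

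Among 9 tested JAK and STAT genes, Jak1 rose and Stat5a and Stat2 fell, with a median change of -0.23 beside 0.01 over all genes. Stat5a, one of the STAT factors used by growth hormone and prolactin receptors, had 7.94 ± 2.03 CPM in Fbp1-deleted and 17.2 ± 3.08 CPM in WT livers (SD, n = 5 each), a change of -1.11 (SE 0.18, adjusted p = 0.000951, edgeR). It shares 72 bases of exon with Stat3, where the estimation may divide reads wrongly without strand. The more abundant Stat5b had 54.0 ± 11.2 CPM in Fbp1-deleted and 50.2 ± 6.37 CPM in WT livers. Its change of 0.10 (SE 0.14, adjusted p = 0.639, edgeR) did not pass. Stat2, an interferon signal factor, changed by -0.61 (SE 0.12, adjusted p = 0.00282, edgeR). Jak2, the kinase bound by the leptin receptor, had 11.3 ± 1.73 CPM in Fbp1-deleted and 11.9 ± 1.15 CPM in WT livers, a change of -0.08 (SE 0.13, adjusted p = 0.723, edgeR).

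Among 22 tested attenuators and adaptors, 4 fell and 1 rose, with a median change of -0.07 beside 0.01 over all genes. The genes with the largest falls were Socs2 and Cish, known targets and inhibitors of STAT5 signalling. Socs2 had 1.53 to 7.40 CPM in Fbp1-deleted and 13.4 to 47.5 CPM in WT livers, a change of -2.70 (SE 0.47, adjusted p = 0.00394, edgeR). Cish had 3.07 to 14.0 CPM in Fbp1-deleted and 17.1 to 42.5 CPM in WT livers, a change of -1.81 (SE 0.43, adjusted p = 0.0163, edgeR), a call that was lost with no filter (adjusted p = 0.051). Pias4 and Pias3, of a family of STAT inhibitors, changed by -0.47 (SE 0.13) and -0.66 (SE 0.21), and the phosphatase gene Ptpn2, which acts on JAK1 and STATs, by 0.63 (SE 0.15). The call for Pias3 ended when Fbp1-deleted replicate 6, 7, 9 or 10 was left out, and likewise for WT replicate 1, 2 or 5, with edgeR's adjusted p-values of 0.0571 to 0.0897. Ptpn1, a phosphatase that acts on JAK2, changed by -0.12 (SE 0.16, adjusted p = 0.641, edgeR).

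Among 39 tested acute phase and immediate genes listed as STAT3-responsive, 8 fell and 2 rose, beside 10% lower and 10.6% higher over all genes. The median change was -0.25, beside 0.01 over all genes. Whether each listed gene responds to STAT3 in these livers was not tested. Pim1, a survival kinase, changed by -1.87 (SE 0.23, adjusted p = 0.000219, edgeR), with 3.20 to 7.47 CPM in Fbp1-deleted and 14.7 to 25.7 CPM in WT livers. The survival factor gene Mcl1 had 62.6 to 79.7 CPM in Fbp1-deleted and 105 to 130 CPM in WT livers, and the NF-kappaB cofactor gene Bcl3 had 11.0 to 20.5 CPM in Fbp1-deleted and 24.8 to 51.7 CPM in WT livers. The groups of these 3 genes did not overlap. In the whole list 7 tested genes had no overlap and lower levels, beside 6.89% of all genes tested. With no overlap and higher levels there were 0, beside 6.57%. Apcs, serum amyloid P, and Orm3, an orosomucoid, changed by -1.14 (SE 0.18) and -1.30 (SE 0.23). The genes that rose, named after their values were seen, were Bcl6, a transcriptional repressor, at 1.57 (SE 0.29), and Cebpd, an acute phase activator, at 0.67 (SE 0.18). Among secreted proteins of the list, Saa4, a serum amyloid A gene also named after its values were seen, fell, with 97.5 to 164 CPM in Fbp1-deleted and 213.5 to 480.3 CPM in WT livers. Its change was -1.16 (SE 0.25). Hp, haptoglobin, changed by -0.29 (SE 0.17), Fgb, fibrinogen beta, by -0.24 (SE 0.18) and Saa1 by -0.96 (SE 0.97), and these 3 did not pass. Other genes of the list that did not pass had positive changes, among them Myc (1.62, SE 0.54), Hamp (0.78, SE 0.27) and Serpina3k (0.74, SE 0.33). Fga, fibrinogen alpha, changed by -0.08 (SE 0.23) and Saa2 by -0.25 (SE 0.96), and neither passed. Saa and Orm genes are families of similar genes whose reads the estimation may divide wrongly. In the list of receptor shedding and trafficking, 1 of 11 tested genes rose and 0 fell (edgeR; 0 lower at an unadjusted p under 0.05, 0 by DESeq2 or limma-voom). This was Adam17, the protease that sheds the interleukin-6 receptor, at 0.42 (SE 0.12, adjusted p = 0.0252, edgeR), a call that ended when Fbp1-deleted replicate 6, 9 or 10 was left out, and likewise for WT replicate 1, 2 or 5 (adjusted p-values of 0.0531 to 0.0728).

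**Figure D5:**
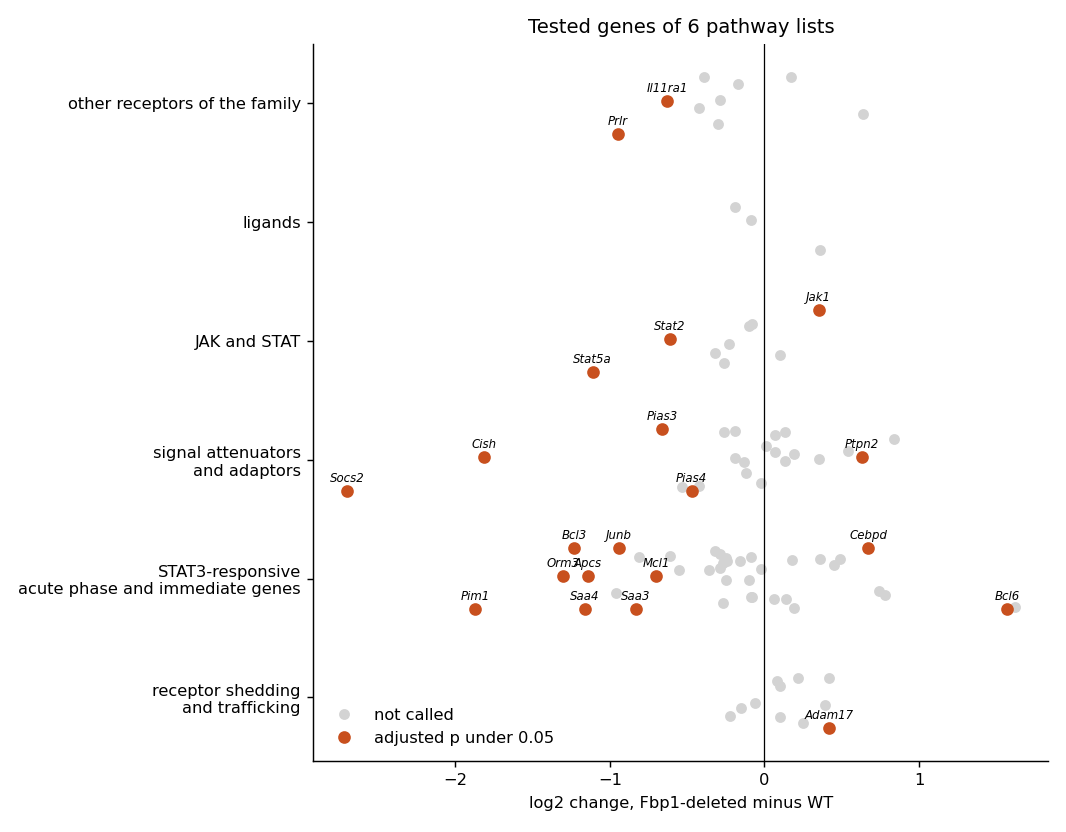
Fitted log2 change, Fbp1-deleted minus WT, of each tested gene in 6 lists (vertical position within a list has no meaning), orange where the adjusted p was under 0.05. The 16 genes that fell lie between -2.70 and -0.47, and the 5 that rose between 0.35 and 1.57.

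A set of 5 genes lay closest to Lepr over the 10 livers, by the mean absolute difference of log2 CPM after each gene was set to its own WT mean. The order ran over the 11987 tested genes with a mean log2 CPM of at least 1. Ppp1r3g, a glycogen-targeting phosphatase subunit, came first with a mean difference of 0.46. Its level was 150, 182, 79.6, 281 and 425 CPM in Fbp1-deleted replicates 6 to 10, against 3.54, 3.39, 5.90, 7.98 and 3.24 CPM in WT replicates 1 to 5. The unnamed noncoding gene Gm48199 (0.78), Fam222a (0.79), Ddit4, an inhibitor of mTORC1 (0.85), and Igfbp1, an insulin-repressed binding protein (0.86), followed. The measure takes the size of the change and the differences between livers together, so neither is a further result. It does not require the same order of livers. Among Fbp1-deleted livers Ppp1r3g was highest in replicate 10, and Lepr in replicate 9. These 5 genes were the first 5 of the order with library totals too.

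Markers of other cells were read beside these values. Over all genes tested 10.6% were called higher and 10% lower, the shares to set beside the marker counts. Adipocyte markers, a source of leptin, summed to 0.220 to 0.789 CPM in Fbp1-deleted and 0.327 to 1.03 CPM in WT livers, with none of 6 high enough to be tested and Lep at 0. Of 8 Kupffer cell markers 4 fell, with sums of 172 to 254 CPM in Fbp1-deleted and 230 to 322 CPM in WT livers. Of 8 hepatocyte markers 1 rose and 1 fell. Of 8 stellate cell markers 1 rose, with sums of 473 to 534 CPM in Fbp1-deleted and 374 to 484 CPM in WT livers. Of 8 sinusoidal endothelial markers 1 rose, with sums of 209 to 336 CPM in Fbp1-deleted and 291 to 350 CPM in WT livers. The 1 that rose changed by 0.83, and the others of that list, none called, by -0.46 to -0.15. Cholangiocyte markers summed to 12.9 to 22.2 CPM in Fbp1-deleted and 16.5 to 29.1 CPM in WT livers, and neutrophil markers to 1.56 to 6.43 CPM in Fbp1-deleted and 3.99 to 10.05 CPM in WT livers. Of 5 tested T and B cell markers 2 fell, with sums of 2.98 to 4.36 CPM in Fbp1-deleted and 4.37 to 9.89 CPM in WT livers. Markers of the choroid plexus, a tissue rich in leptin receptor, and of the pituitary summed to 1.54 to 2.12 CPM in Fbp1-deleted and 0.823 to 2.21 CPM in WT livers. Of these 4 markers 1 was high enough to be tested, and the symbol Gh1 had no row, so the sum leaves it out. The part of these cell types in the levels of the 9 genes was not tested.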

How the data were processed

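Livers were profiled by paired-end mRNA sequencing from libraries that do not keep the strand, per the labels' protocols and the series' design text. Estimated counts for each gene were deposited, made by the authors with Salmon on GRCm38, per the submitters' processing notes, which give no version. The series' design text also names STAR and featureCounts for a count matrix that is not used here. The name of the Salmon table points to gene-level sums, and whether transcript length was adjusted for is not given in the sources used here. The values were whole numbers as deposited. Of 53392 identifiers, 52175 matched GENCODE M21 by identifier and version, 1180 by identifier, and 37 not at all. Group and replicate came from sample titles. Between libraries of a group chi-square was at least 14.4 times its degrees of freedom, far above counting noise.

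The test was edgeR 4.0.16, run in R 4.3.3 (filterByExpr, TMM, robust quasi-likelihood F test, no covariate), adjusted by Benjamini-Hochberg over 15392 genes at a threshold of 0.05. SE was taken as the absolute change over the root of the F statistic. Library sizes for CPM carried the TMM factors. CPM per kb divides by the union of annotated exons. Log2 CPM for the likeness to Lepr used a prior count of 2, over 11987 genes. Alternatives were RLE factors, upper quartile factors, library totals, no filter, a stricter filter (1 CPM in 5 libraries) and no robust shrinkage. Further ones were removal of 4 genes whose share averaged above 1% over the libraries, DESeq2 1.42.0, limma-voom (limma 3.58.1) and each library left out. The 9 members and the gene lists were chosen with earlier results of these data known. Named genes were the members, the ligands, genes near Lepr and the 5 genes most like it. In each list up to 5 called genes with the smallest adjusted p were named. Outside that rule stand Ghr, Jak2, Stat5b, Ptpn1, Hp, Fga, Fgb, Saa1, Saa2, Lcn2, Saa4, Bcl6, Cebpd, Myc, Hamp and Serpina3k. These were chosen after their values were seen. Salmon shares out reads of similar transcripts by a model, and replicates do not show errors of that step. Intervals and limits from counts cover counting error only. The labels name no batch. Biological replicates are stated in the design text.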

Additional observations from a re-analysis of the deposited data

Results flagged for a closer look

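Of 60 groups of 5 livers, from 30 genes, 2 held a liver far from the other 4 by Dixon's ratio, where chance flags about 1 in 20 groups. Stat3 had 231.4 CPM in Fbp1-deleted replicate 9, against 184 to 193.1 CPM in the other Fbp1-deleted livers. Stat5a had 11.49 CPM in Fbp1-deleted replicate 8, against 6.78 to 7.75 CPM in the other Fbp1-deleted livers.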

How the results depend on the processing

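The change of Lepr kept its direction and call in the 9 other settings (4.79 to 5.06) and with each library left out (4.67 to 5.23). Of 81 values of the 9 members in other settings, 80 kept their direction and side of the threshold, and Il6ra with library totals did not (-0.54, called lower), so that 2 members were then called lower. With libraries left out in turn, 85 of 90 kept them. Lifr lost its call 4 times, with changes over all omissions from -0.60 to -0.43, and 0 to 1 members were then called lower. Osmr turned to 0.03 without WT replicate 1, with changes over all omissions from -0.20 to 0.03. The number of JAK and STAT genes called higher was 0 with library totals, upper quartile factors or no filter, and 4 were called lower with the first pair of settings. Of the STAT3-responsive list 4 genes were called higher with DESeq2. With libraries left out the ranges were 0 to 1 for JAK and STAT genes called higher, 2 to 4 for STAT3-responsive genes called higher, and 0 to 1 for shedding genes called higher and for those called lower. Over all genes 1066 to 2060 were called higher and 1019 to 1858 lower, where the count was cut most without Fbp1-deleted replicate 9 (1066 higher) or 6 (1086 higher and 1019 lower). The cause was not tested. Of the 21 called genes of the lists, 5 of 189 values in other settings and 20 of 210 with a library left out lost their call, and none reversed. No paired analysis was possible because the groups share no replicate number. At these depths a gene with no read may lie at up to 0.169 CPM, so Lep and Il6 cannot be compared.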
